A study of Homo sapiens with 4 samples.

Results

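The genes described here are 10 genes that set the passage of a cell from G1 into S phase: the cyclins CCND1, CCND2, CCND3, CCNE1 and CCNE2, the cyclin-dependent kinases CDK4, CDK6 and CDK2, and the CDK inhibitors CDKN1B and CDKN2C. They were taken by name from the 20263 genes listed, and all 10 were found. Their transcripts were measured by RNA-seq in HCT116, an established colorectal carcinoma cell line of human origin, labelled wild type, after 24 hours. One group of 2 libraries had received 30 µM HJ-23, which the submitters call a derivative of piperine, and the other group of 2 libraries had received 0.1% DMSO as the solvent control. The treatment field of the HJ-23 samples reads HJ-25; the name in the sample titles is used, and the direction of each difference rests on those titles. The study gives 1 dose, 1 time and 1 cell line, and no label states that replicate libraries were grown as separate cultures; p-values therefore reflect the scatter among these 4 libraries, possibly a technical one.

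In G1, mitogen signals raise the D-type cyclins, which bind CDK4 and CDK6 and start the phosphorylation of the retinoblastoma protein RB1. Phosphorylated RB1 releases E2F transcription factors, which turn on the E-type cyclins, and cyclin E with CDK2 completes the phosphorylation and opens S phase. CDKN2C, of the INK4 family, binds CDK4 and CDK6 and keeps cyclin D away, while CDKN1B, of the CIP/KIP family, inhibits cyclin E with CDK2. Many of these steps are controlled at the protein level, by phosphorylation and degradation, and RNA-seq does not measure those.

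None of the members passed the test: 9 of the 10 had enough counts to be tested, and 0 differed between HJ-23 and DMSO at an adjusted p below 0.05 (edgeR's quasi-likelihood test, Benjamini-Hochberg adjustment over 14062 genes). In all genes tested, 0.0853% were called by that rule, 0.0569% higher and 0.0284% lower. At an unadjusted p below 0.05 there was 1 member, CCND1, against 12.0% of all genes, and DESeq2 called 0 members at its adjusted threshold, against 2.31% of the genes it tested, with 0 members at an unadjusted p below 0.05. The log2 fold changes of HJ-23 over DMSO ran from -0.44 (CCNE2) to 0.39 (CCND1), with a median of 0.069 against 0.0086 over all genes. No tested member reached an absolute log2 fold change of 0.5, which 16.8% of all genes did.

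**Figure D1:**
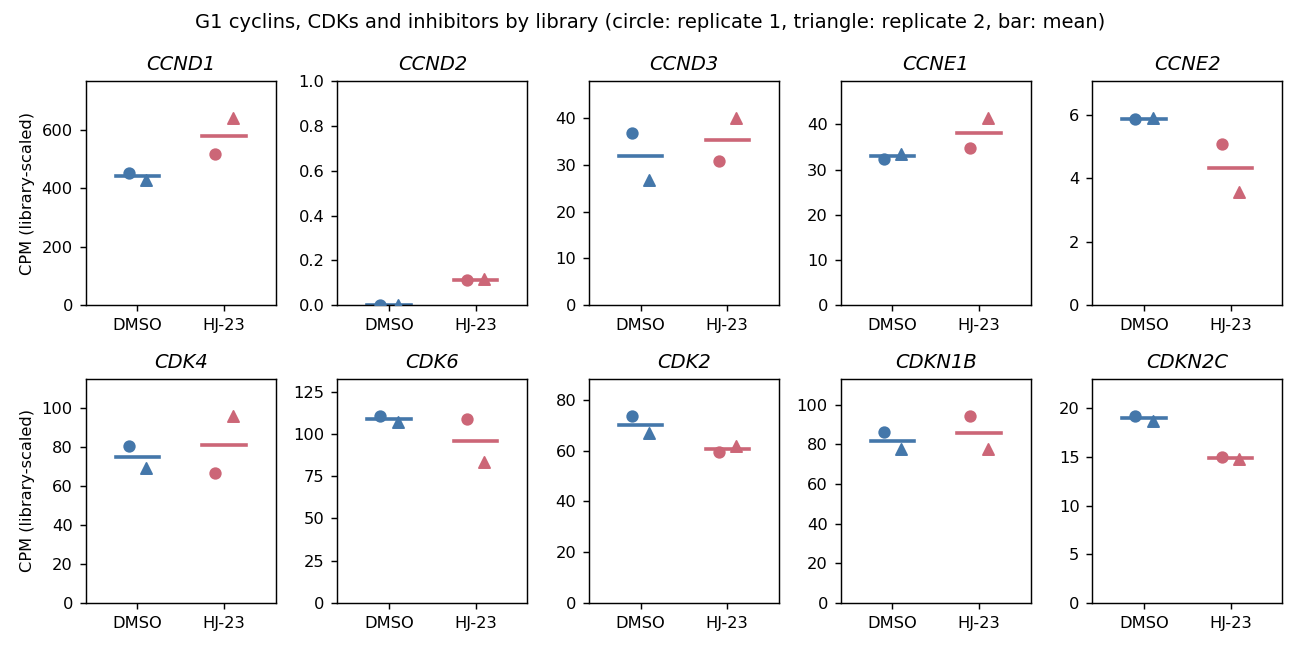
Library-scaled CPM (read counts relative to library size) of each of the 10 genes, with a circle for replicate 1, a triangle for replicate 2 and a bar for the mean of each group; every vertical axis starts at 0. CCND1 was the most abundant in CPM and had both HJ-23 libraries above both DMSO libraries, and the libraries of the groups overlapped for CCND3, CDK4, CDK6 and CDKN1B.

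The libraries held 29769568 to 34831207 counts, and 15533 to 15754 genes had a count in each. Of the epithelial markers, EPCAM was at 262.4 ± 12.1 CPM in the control libraries and 269.0 ± 4.56 CPM in the treated ones, and CDH1, KRT8, KRT18 and KRT19 were also abundant. The intestinal markers VIL1, CEACAM5 and KRT20 had 0 to 16 counts per library, CDX1 had 0, and CDX2, an intestinal transcription factor, was at 13.8 ± 0.68 CPM in the control libraries. The leukocyte marker PTPRC, the T cell marker CD3E and the fibroblast markers DCN, LUM and COL1A2 were at 0 in all 4 libraries. The fibroblast list summed to between 55.8 and 63.7 CPM, nearly all of it COL1A1, and the leukocyte list to between 36.1 and 52.9 CPM, nearly all of it CD68. Across genes, log2 differences moved with the GC content of the transcript (Spearman 0.38 between the groups, 0.64 for HJ-23 replicate 2 over replicate 1 and -0.36 for DMSO replicate 2 over replicate 1, a description across genes, which are not independent). Fewer cells in a phase of the cycle and less RNA per cell cannot be told apart in these bulk samples.

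The D-type cyclins, the mitogen sensors of G1, were represented almost wholly by CCND1. CCND1 (ENSG00000110092) was at 451.6 and 429.8 CPM in DMSO replicates 1 and 2 and at 515.7 and 638.8 CPM in HJ-23 replicates 1 and 2. Both treated libraries lay above both controls, and the HJ-23 libraries were further apart than the DMSO libraries. The mean was 440.7 ± 15.4 CPM (SD, n = 2) in DMSO and 577.2 ± 87.0 CPM in HJ-23, a log2 fold change of 0.39 (SE 0.16, 95% interval 0.0065 to 0.77), with an edgeR adjusted p of 0.407 and an unadjusted p of 0.0473. The interval is for this gene alone, without adjustment for the number of genes tested. Its width also rests on degrees of freedom borrowed from the other genes. Without HJ-23 replicate 1 the log2 fold change was 0.52, and without HJ-23 replicate 2 it was 0.20, both in fits with a single HJ-23 library whose spread is taken from the DMSO pair.

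CCND3 (ENSG00000112576), another partner of CDK4 and CDK6, was at 36.9 and 26.9 CPM in the DMSO libraries and at 30.9 and 39.98 CPM in the HJ-23 libraries. The groups overlapped, with DMSO replicate 2 lowest and HJ-23 replicate 2 highest. Its log2 fold change was 0.15 (SE 0.23, 95% interval -0.41 to 0.71, edgeR adjusted p = 0.813), and it was -0.082 with DMSO replicate 2 left out and -0.070 with HJ-23 replicate 2 left out. CCND2 (ENSG00000118971) had 0 counts in both DMSO libraries and 4 counts in each HJ-23 library, at or under the 6 counts taken as the limit of detection, which corresponds to 0.169 to 0.205 CPM. It was therefore not detectable at this depth in either group, and no fold is given.

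Per kilobase of exon, CCND1 made up 91.6% and 93.5% of the summed D-type cyclin transcript in the DMSO libraries and 93.7% and 93.5% in the HJ-23 libraries. CCND3 made up nearly all the rest, 6.28% to 8.37% across the 4 libraries, or 9.73% to 12.8% with the longest transcript as the length. The CCND1 share overlapped between the groups (exact permutation test, two-sided, p = 0.667). With 2 libraries against 2, the smallest p that test can give is 0.333.

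The E-type cyclins, which activate CDK2 late in G1, had opposite signs. CCNE1 (ENSG00000105173) was at 32.3 and 33.5 CPM in DMSO and at 34.7 and 41.3 CPM in HJ-23. Both treated libraries were above both controls, replicate 1 by little and replicate 2 by more, and the log2 fold change was 0.21 (SE 0.17, 95% interval -0.21 to 0.63, edgeR adjusted p = 0.642), with 0.052 when HJ-23 replicate 2 was left out. CCNE2 (ENSG00000175305), its less abundant paralog, was at 5.86 and 5.88 CPM in DMSO and at 5.08 and 3.57 CPM in HJ-23. Both treated libraries were below both controls, which were nearly equal, and the log2 fold change was -0.44 (SE 0.24, 95% interval -1.04 to 0.16, edgeR adjusted p = 0.501). It was -0.73 when HJ-23 replicate 1 was left out and -0.23 when HJ-23 replicate 2 was.

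CCNE2 rests on 123 to 182 counts per library. Its annotated exons share 1629 of 3432 bases with INTS8 on the opposite strand, a gene with 2779 to 3632 counts, and whether the counting used strand is not stated, so its value is uncertain. The share of CCNE1 in the summed E-type cyclin transcript per kilobase was 90.1% and 90.4% in DMSO and 91.9% and 95.02% in HJ-23. These groups did not overlap, and p was 0.333, the smallest possible (exact permutation test, two-sided).

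Levels per length can also be set side by side among all members. Per kilobase of exon, CCND1 stood first in both groups, at 100.05 ± 3.51 CPM per kilobase in DMSO and 131.0 ± 19.8 in HJ-23. In DMSO it was followed by CDK4 (36.1 ± 3.97), CDKN1B (30.8 ± 2.25), CDK2 (28.8 ± 1.92), CCNE1 (15.8 ± 0.402), CDK6 (9.28 ± 0.21), CCND3 (8.09 ± 1.80), CDKN2C (5.71 ± 0.10) and CCNE2 (1.71 ± 0.0043). In that order CDKN1B and CDK2 overlapped between libraries, as did CDK6 and CCND3. In HJ-23 the order was the same but for CCND3 (8.99 ± 1.63) and CDK6 (8.18 ± 1.53), which stood in the reverse order and again overlapped, and CDK4 overlapped with CDKN1B. With the longest transcript as the length CCND3 stood above CDK6 in both groups, at 13.3 against 9.37 CPM per kilobase in DMSO.

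**Figure D2:**
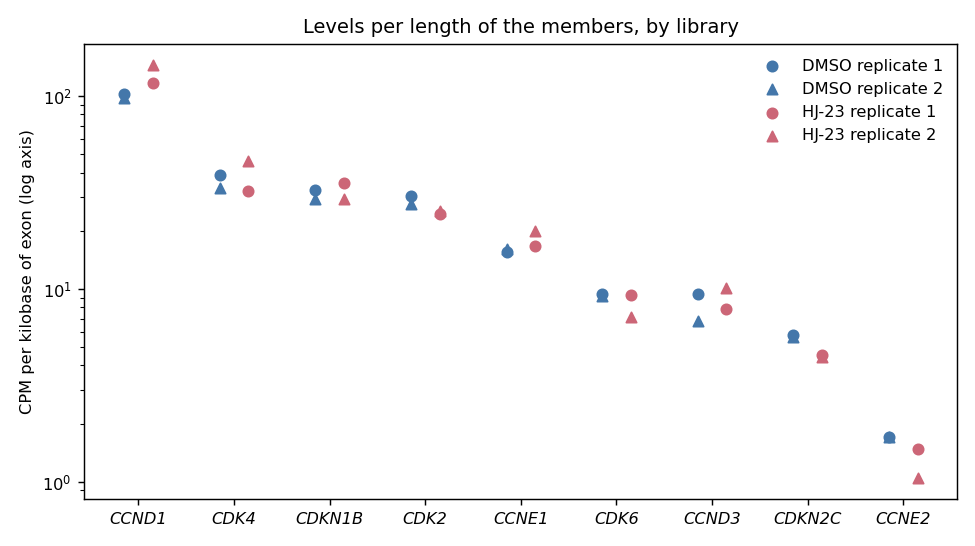
CPM per kilobase of exon on a log axis for 9 of the genes in each library, ordered by the DMSO mean; blue is DMSO, red is HJ-23, circles are replicate 1 and triangles replicate 2, and CCND2 is left out because it had 0 counts in DMSO. The levels ran from 145.0 for CCND1 in HJ-23 replicate 2 to 1.04 for CCNE2 in the same library, a range far wider than any difference between the groups.

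Of the kinases, CDK4 and CDK6 are the partners of the D-type cyclins. CDK4 (ENSG00000135446) was at 80.7 and 69.0 CPM in DMSO and at 66.5 and 95.8 CPM in HJ-23. The 2 HJ-23 libraries held its lowest and its highest value, and the log2 fold change was 0.12 (SE 0.21, 95% interval -0.40 to 0.64, edgeR adjusted p = 0.849). It was -0.20 without HJ-23 replicate 2 and -0.015 without DMSO replicate 2. The exons of CDK4 share 1078 of 2076 bases with TSPAN31 on the opposite strand, which had 491 to 689 counts against 2020 to 3297 for CDK4. CCND1 shares 497 of 4405 bases with LTO1, also on the opposite strand, at 166 to 282 counts against 12575 to 21984 for CCND1.

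CDK6 (ENSG00000105810) was at 110.6 and 107.1 CPM in DMSO and at 108.6 and 83.2 CPM in HJ-23. HJ-23 replicate 1 lay between the DMSO libraries and HJ-23 replicate 2 below them. The log2 fold change was -0.18 (SE 0.17, 95% interval -0.60 to 0.24, edgeR adjusted p = 0.682), and with the correction for GC content and length it was 0.13. It was -0.41 when HJ-23 replicate 1 was left out and -0.027 when HJ-23 replicate 2 was. CDK4 made up 80.5% and 78.5% of the summed CDK4 and CDK6 transcript per kilobase in DMSO and 77.6% and 86.7% in HJ-23, with overlapping groups (exact permutation test, two-sided, p = 1).

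CDK2 (ENSG00000123374), the partner of cyclin E and later of cyclin A, was at 73.6 and 66.95 CPM in DMSO and at 59.6 and 61.9 CPM in HJ-23. Both treated libraries were below both controls, and the log2 fold change was -0.21 (SE 0.14, 95% interval -0.56 to 0.14, edgeR adjusted p = 0.573). The ratio of summed E-type cyclins to CDK2 per kilobase was 0.572 and 0.650 in DMSO and 0.744 and 0.825 in HJ-23. The ratio of summed D-type cyclins to CDK4 plus CDK6 was 2.32 and 2.46 in DMSO and 3.03 and 2.91 in HJ-23. For both ratios the treated libraries lay above the controls, with p = 0.333, the smallest possible (exact permutation test, two-sided). Neither ratio was among the measures fixed at the start, and neither was corrected for GC content. Among single genes, 46.0% of all those tested did not overlap between the groups.

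The inhibitors were CDKN1B and CDKN2C. CDKN1B (ENSG00000111276), the p27 protein, was at 86.2 and 77.7 CPM in DMSO and at 94.3 and 77.7 CPM in HJ-23. DMSO replicate 2 and HJ-23 replicate 2 gave the same level, and the log2 fold change was 0.069 (SE 0.16, 95% interval -0.32 to 0.46, edgeR adjusted p = 0.881), with -0.096 without HJ-23 replicate 1 and -0.027 without DMSO replicate 2. CDKN2C (ENSG00000123080), the p18 protein, was at 19.2 and 18.7 CPM in DMSO and at 15.03 and 14.7 CPM in HJ-23. Both groups were tight and did not overlap, and the log2 fold change was -0.35 (SE 0.16, 95% interval -0.74 to 0.049, edgeR adjusted p = 0.456). With the correction for GC content and length it was -0.51 (edgeR adjusted p = 0.178).

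The ratio of summed D-type cyclins to CDKN1B plus CDKN2C per kilobase was 2.93 and 2.99 in DMSO and 3.12 and 4.61 in HJ-23. The groups did not overlap, but HJ-23 replicate 1 was nearer to the controls than to HJ-23 replicate 2 (exact permutation test, two-sided, p = 0.333, the smallest possible).

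Of the 9 tested members, both HJ-23 libraries were above both DMSO libraries for 2 (CCND1 and CCNE1) and below them for 3 (CCNE2, CDK2 and CDKN2C), against 24.8% and 21.2% of all genes; together, 46.0% of all genes did not overlap. The share among the members was thus near that of all genes.

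**Figure D3:**
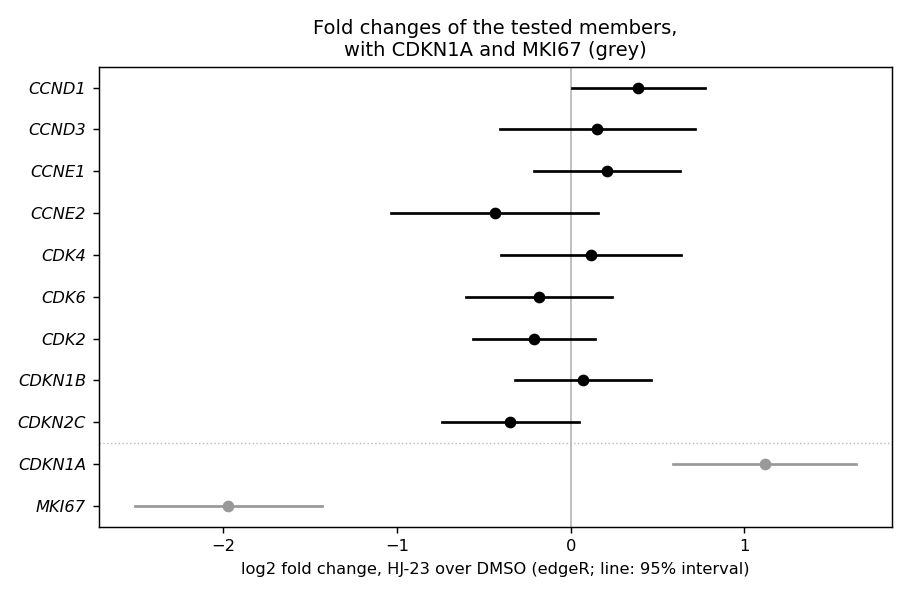
Log2 fold change of HJ-23 over DMSO (point) with its 95% interval (line) from edgeR for the 9 tested genes in black, and for CDKN1A and MKI67 in grey, on 1 axis. The intervals of 8 of the 9 genes cross 0, while that of CCND1 starts at 0.0065.

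Most of the members fell into groups by the library in which they were highest or lowest. CDK2, with a GC content of 48.4%, was in neither group: it was highest in DMSO replicate 1 and lowest in HJ-23 replicate 1. HJ-23 replicate 2 was the highest library for CCND1, CCND3, CCNE1 and CDK4, whose longest transcripts have a GC content of 50.3%, 56.2%, 52.9% and 53.6%. It was the lowest library for CCNE2 and CDK6, with 36.9% and 39.5%, and for CDKN2C, with 58.1%; for CDKN1B, with 47.7%, it was level with DMSO replicate 2. Its log2 difference from HJ-23 replicate 1 ran from -0.51 (CCNE2) to 0.53 (CDK4), wider than the range of differences between the groups. With the correction for GC content and length, the log2 fold changes were 0.36 for CCND1, 0.017 for CCND3, 0.12 for CCNE1, -0.36 for CCNE2, 0.010 for CDK4 and -0.21 for CDK2, and 0 members were called, against 0.242% of all genes. That correction was fitted to each library's deviation from the mean of the 4 libraries. It therefore also acts on a difference between the groups that follows GC content or length.

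**Figure D4:**
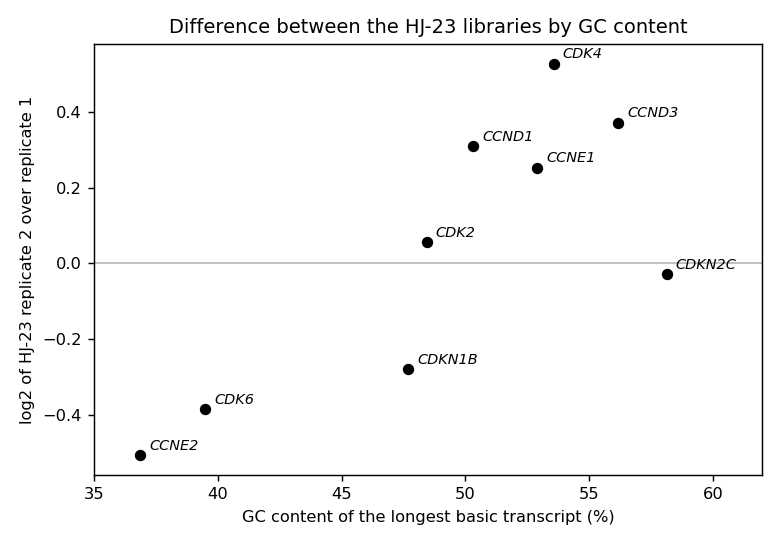
Log2 difference of HJ-23 replicate 2 from HJ-23 replicate 1 (vertical) against the GC content of the longest basic transcript in percent (horizontal) for the 9 tested genes. CCNE2 and CDK6, lowest in GC content, lie at -0.51 and -0.38, and the 4 genes between 50.3% and 56.2% lie at 0.25 to 0.53; CDKN2C, at 58.1%, lies at -0.029.

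The RefSeq promoter table (GRCh38.p14, 250 bases before to 50 after a start) held 6 of the 10 members, with 11 starts. CCND1, CCND2, CCNE2 and CDK2 were not in it, so nothing is said of their promoters. The GC box GGGCGG, searched on both strands, was present at 8 of the 11 starts, against 45.0% of all promoters in the table. Each of the 6 genes had it at 1 start or more, for which no share per gene over all genes was computed. The E2F octamers TTTGGCGC, TTTCCCGC, TTTCGCGC and TTTGCCGC were found at 0 of the 11, against 3.31% of all promoters. Only exact matches were searched, and with 11 starts 0 cannot be told apart from 3.31%. The core TGACGT of the cyclic AMP response element was found at 3 of the 11, against 7.98%. Those 3 starts belong to 2 genes, CDK6 and CDKN2C. A match is a description of the letters only. Among the genes with a single start in the table, CCNE1 had 7 GC boxes, CDK4 had 3 and CDKN1B had 1. The inhibitor CDKN2C had 0, 6 and 1 at its 3 starts, and the cyclin CCND3 had 0, 4 and 5. Printed below are the sequences of CCNE1 and CDKN1B, a cyclin and an inhibitor. They run 5′ to 3′ on the gene's strand (plus for both), with the GC boxes in capitals. CCNE1 is at chr19:29811741-29812040 and CDKN1B at chr12:12717118-12717417.
CCNE1: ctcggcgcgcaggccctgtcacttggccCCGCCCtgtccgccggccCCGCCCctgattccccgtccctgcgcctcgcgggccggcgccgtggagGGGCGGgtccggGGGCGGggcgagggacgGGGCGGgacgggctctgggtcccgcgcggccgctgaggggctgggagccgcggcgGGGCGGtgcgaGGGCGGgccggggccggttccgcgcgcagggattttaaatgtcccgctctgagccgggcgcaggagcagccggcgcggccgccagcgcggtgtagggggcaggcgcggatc
CDKN1B: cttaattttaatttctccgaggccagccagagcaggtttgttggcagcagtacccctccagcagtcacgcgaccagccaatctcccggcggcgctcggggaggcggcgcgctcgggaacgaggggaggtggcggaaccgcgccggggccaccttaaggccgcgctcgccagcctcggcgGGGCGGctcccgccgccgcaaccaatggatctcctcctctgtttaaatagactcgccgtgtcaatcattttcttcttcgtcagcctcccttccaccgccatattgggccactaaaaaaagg

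The other genes of the G1 pathway were described in 8 lists by role, with 72 genes, of which 71 were tested. Of these, 0 passed over all genes with edgeR, and 1 was higher and 5 lower at an unadjusted p below 0.05, where 12.0% of all genes lay. DESeq2 called 2, CDKN1A and CDKN1C, against 2.31% of the genes it tested, so neither count stood out from all genes. The median log2 fold change was -0.13, with 27 positive and 44 negative, against 0.0086 over all genes.

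Among the other CDK inhibitors, 2 of 5 had positive values, with a median of -0.017 and a spread from -0.82 to 1.12. CDKN1A, the p53-induced inhibitor p21, was at 289.6 and 230.6 CPM in DMSO and at 468.4 and 660.0 CPM in HJ-23, well apart and with a log2 fold change of 1.12 (SE 0.22, edgeR adjusted p = 0.218; DESeq2 adjusted p = 9.44e-04). CDKN1C, the p57 protein of the same family as CDKN1B, was at 69.7 and 65.9 CPM in DMSO and at 32.6 and 43.99 CPM in HJ-23, also without overlap and in the opposite direction. Its log2 fold change was -0.82 (SE 0.19, edgeR adjusted p = 0.255; DESeq2 adjusted p = 0.0166; edgeR adjusted p = 0.0381 with the correction for GC content and length). CDKN1A and CDKN1C therefore had opposite signs within the CIP/KIP family, with CDKN1B close to 0.

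The 3 pocket proteins, which hold E2F factors in check, had negative values, with a median of -0.24. RBL1, whose gene is itself under E2F control, averaged 9.99 ± 1.10 CPM in the control and 6.15 ± 1.75 CPM in the treated libraries, a log2 fold change of -0.70 (edgeR adjusted p = 0.382), and RBL2 had -0.24. RB1, the retinoblastoma protein, had a log2 fold change of -0.020 and was named outside the rule for its role. The 10 E2F and DP factors were split, 5 positive and 5 negative, with a median of -0.051. E2F4, a factor that mostly represses, had 0.35 and E2F8, an atypical repressor, -0.56, and neither passed (edgeR adjusted p = 0.431 and 0.446).

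The 6 genes of CDK activation had a median of 0.032, with CDC37, the chaperone partner that loads CDK4, at 0.24 and MNAT1, of the CDK-activating kinase, at -0.24. The 12 genes of cyclin and inhibitor turnover had a median of -0.076. AMBRA1, the receptor that sends D-type cyclins to degradation, had a log2 fold change of 0.31 (edgeR adjusted p = 0.527), and RBX1, the RING subunit of cullin ligases, -0.33. The 12 genes of mitogen and FOXO control had a median of -0.14, with MYC averaging 15.7 ± 2.83 CPM in the control and 9.32 ± 4.72 CPM in the treated libraries (-0.75, SE 0.37, edgeR adjusted p = 0.469) and ETS2, an effector of the RAS pathway, at 0.27.

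The 18 E2F target genes of S phase entry had a median of -0.21, with 7 positive and 11 negative. RRM2, the regulated subunit of ribonucleotide reductase, averaged 297.8 ± 1.28 CPM in the control and 206.6 ± 15.6 CPM in the treated libraries, a log2 fold change of -0.53 (SE 0.13, edgeR adjusted p = 0.279), and ORC1, of the origin recognition complex, had -0.44. Of the later cyclins and CDK1, 5 of 6 were tested and 4 were negative, with a median of -0.20. CDK1, the mitotic kinase, averaged 110.3 ± 3.09 CPM in the control and 78.0 ± 10.2 CPM in the treated libraries (-0.50 on the log2 scale, SE 0.15, edgeR adjusted p = 0.330), CCNA2 had -0.25, and CCNA1 had 0 counts in all 4 libraries. MKI67, the proliferation marker, was at 173.7 and 253.6 CPM in DMSO and at 58.4 and 50.5 CPM in the treated libraries (-1.97 on the log2 scale, edgeR adjusted p = 0.0735), farther from 0 than any tested G1 member. It passed over all genes with DESeq2 (DESeq2 adjusted p = 1.68e-13) and with the correction for GC content and length (edgeR adjusted p = 0.0381).

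**Figure D5:**
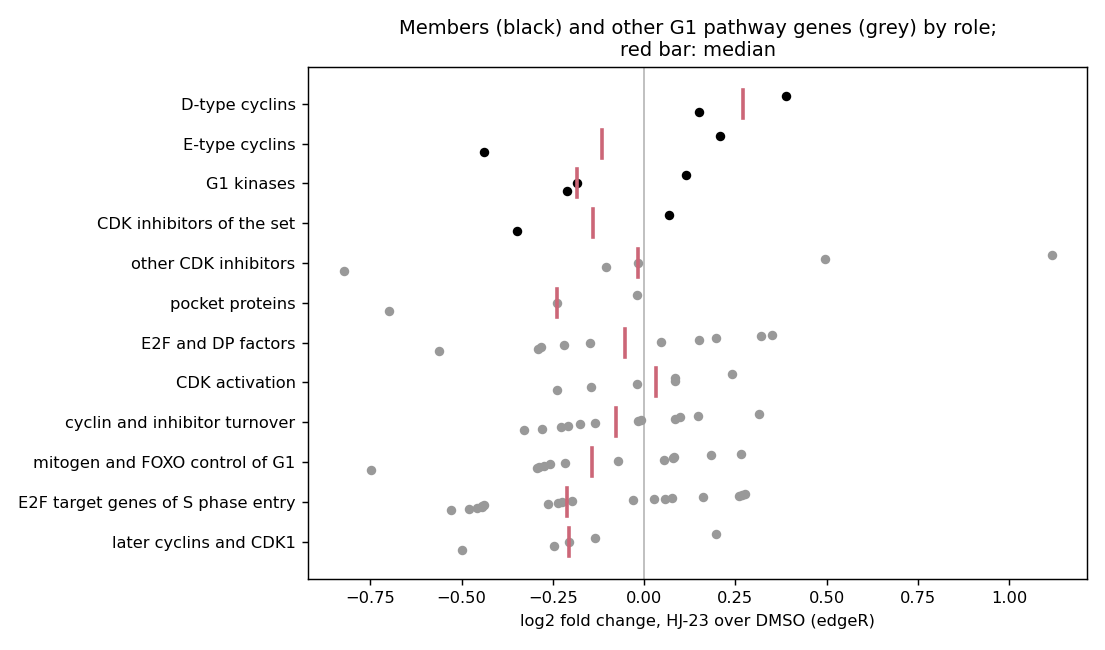
Log2 fold change of HJ-23 over DMSO for each tested gene (point), by role, with members in black, other pathway genes in grey and the median of each list as a red bar. The members lie between -0.44 and 0.39, and the points farthest from 0 are CDKN1A at 1.12 and CDKN1C at -0.82.

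Among 75 members and pathway genes with a mean of at least 10 CPM, the profiles over the 4 libraries nearest to that of CCND1 were those of AMBRA1, E2F4 and TYMS, with Euclidean distances of 0.10, 0.10 and 0.15 on the centred log2 CPM scale. Near to CDKN1B were TFDP2 and FBXW7, at 0.097 and 0.17. With 4 libraries such profiles are a description.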

How the data were processed

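RNA-seq counts of 4 libraries, 2 per group, were analysed. The authors deposited whole-number counts per Ensembl gene, 1 table per library, without normalization, as the values show. HISAT2, RSEM, bedtools, Trimmomatic and FastQC were used per the submitters' processing notes, which give no versions or roles; a genome build, counting settings and strand use are not stated there or in the labels. Groups and replicate numbers came from the sample titles. Of values of 1 to 8, 69.6% to 72.3% per library were even, and of values above 50, 49.7% to 50.8%. Many but not all fragments may thus have been counted as 2 mates, which was not tested, and the detection limit was set at 6 counts (3 fragments if both mates counted). It covers counting error only.

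Of the identifiers, 20148 took a symbol from a table of gene names, 76 took one from GENCODE 29 and 39 had none. Exon lengths, transcript GC content and exon overlaps came from GENCODE 29 and promoters from RefSeq. Counts were fitted with edgeR 4.0.16 in R 4.3.3 (TMM factors 0.983 to 1.03, filterByExpr, robust legacy quasi-likelihood test, 2 residual degrees of freedom), with Benjamini-Hochberg adjustment over 14062 genes and a threshold of 0.05. CPM values use the TMM-scaled library sizes and are given as mean ± SD (n = 2). Standard errors were derived from the F statistic. DESeq2 1.42.0, other scalings and filters, a GC and length correction (smooth terms per library, mgcv 1.9.3), the replicate block and leaving out each library were the alternatives. No library repeated another (chi-square per degree of freedom of 37.9 between the DMSO libraries and 73.7 between the HJ-23 libraries).

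The members and lists were chosen with earlier results of these data known. The shares of CCNE1 and CDK4, and the ratios to CDK2 and to CDK4 plus CDK6, were not among the measures fixed at the start. The named genes were all members, the 2 genes of each pathway list with the smallest p (or those past the threshold), CDKN1A and MKI67, and the 3 nearest profiles to CCND1 and CDKN1B, of which 1 is not reported here; RB1 and CCNA1 were added after their values were seen.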

Additional observations from a re-analysis of the deposited data

How the results depend on the processing

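The count of members past the threshold was 0 with edgeR, with DESeq2 and under each of the other alternatives run. Of 116 member values under the 13 alternatives fixed at the start, 108 kept their direction, 8 reversed and 0 passed the threshold. Leaving out 1 library at a time, CCND3 ran from -0.082 to 0.398, CDK4 from -0.20 to 0.34 and CDKN1B from -0.096 to 0.18. CCND3 (-0.082), CDK4 (-0.015) and CDKN1B (-0.027) reversed without DMSO replicate 2, CCND3 (-0.070) and CDK4 (-0.20) without the second HJ-23 library, CDKN1B (-0.096) without the first, and CDK6 with the GC and length correction (0.13), also together with the replicate block (0.14). The cause was not tested. CCND1 stayed between 0.20 and 0.52.

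The pathway count, 0 with edgeR, was 2 with DESeq2 (CDKN1A and CDKN1C), 1 with the GC and length correction (CDKN1C) and 1 with the replicate block (CDKN1A); leaving out a library gave 0 to 1. The count over all genes, 12, was 311 with DESeq2, 31 with no filter, 0 with a filter at 10 CPM, 34 with the GC and length correction, 294 with the replicate block and 0 with the block and the correction together; leaving out a library gave 0 to 273 (0 without HJ-23 replicate 1 or 2, 273 without DMSO replicate 1, 157 without DMSO replicate 2). The replicate numbers were not taken as pairs, because they are not said to mark a shared culture or day. Same-numbered libraries deviated from their group means in opposite directions (r = -0.18 across genes). With 2 libraries per group the crossed value is the same with the sign changed, so it cannot decide the pairing. A crossed pairing, chosen after seeing the data, called 966 genes, 0 members and 4 pathway genes. With the longest transcript as the length, also chosen after seeing the data, no share or ratio changed direction. A change of length scales each gene by the same factor in every library. The order of libraries in a share of 2 genes therefore cannot change, and this check says little about robustness. The 2 libraries per group limit the precision: the 95% intervals of the members' log2 fold changes were 0.70 to 1.19 wide.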
